A study of Homo sapiens with 2 samples.

Results

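The p53 family genes TP63 and TP73, their MDM regulators MDM2 and MDM4, and the BCL2 family genes BCL2, BCL2L1, MCL1, BBC3 and PMAIP1 were examined for NeuroD1 binding in IMR-32 cells, a human neuroblastoma cell line with amplified MYCN. Every peak that overlapped the RefSeq body of 1 of these 9 genes, or lay up to 20 kb from either of its ends, was taken. The search found 10 of the 6183 deposited peaks, at 6 of the 9 genes. The study holds 1 wild-type ChIP library made with a NeuroD1 antibody, whose peak list was used, and 1 input library, which was not analysed here. With no replicate, nothing could be tested between samples, and every interval given reflects counting error alone. The antibody is NeuroD1 in the sample labels but H3K27Ac in the study's ChIP-seq procedure, and the labels were followed. The study also lists a NeuroD1 antibody among its reagents and describes a separate H3K27Ac experiment. It reports enrichment of NeuroD1 motifs at the NeuroD1 binding sites of its ChIP-seq.

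NeuroD1 is a basic helix-loop-helix transcription factor that binds DNA at short sites known as E-boxes, together with an E-protein partner, and drives neuronal differentiation. The p53 family of transcription factors activates genes of cell cycle arrest and cell death after stress, and MDM2 and MDM4 hold p53 in check, MDM2 as the ubiquitin ligase that marks it for degradation. The BCL2 family decides whether the outer mitochondrial membrane is opened in apoptosis: BCL2, BCL2L1 (BCL-XL) and MCL1 keep it closed, and BH3-only proteins such as those of BBC3 (PUMA) and PMAIP1 (NOXA) bind and neutralise these guards.

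Of the member peaks, only the one at the start of MDM2 overlapped a RefSeq promoter window (250 bases before to 50 bases after a listed start, GRCh38.p14), so it was the only one whose sequence could be read. The stretch below is the part of that peak that lies before the MDM2 start, chr12:68808020-68808171 on the forward strand, with every E-box (CANNTG) in capitals.

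MDM2 peak: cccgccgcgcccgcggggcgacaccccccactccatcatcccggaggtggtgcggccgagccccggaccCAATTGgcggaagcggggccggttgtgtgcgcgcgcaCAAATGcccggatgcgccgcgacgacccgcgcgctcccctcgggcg

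The stretch was rich in G and C (77.6%). Its E-boxes, CAATTG and CAAATG, lay 11 bp and 21 bp from the summit. Neither has the letters CAGATG or CAGCTG, which are the forms searched here as NeuroD1-type E-boxes on both strands (CATCTG is CAGATG read on the other strand, and CAGCTG reads the same on both).

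The NeuroD1-type letters did occur in other member promoters. No peak was called over any of these windows. The stretches below, on the forward strand, show 1 such site of each of 3 promoters in capitals, to set beside the MDM2 peak. Only bases before a start are printed, so a second CAGCTG that spans the downstream MDM2 start and a CATCTG after another TP73 start are not shown. The stretches are from the downstream MDM2 start (chr12:68808957-68809016), from TP63 (chr3:189631239-189631298) and from TP73 (chr1:3652316-3652375).

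MDM2 downstream start: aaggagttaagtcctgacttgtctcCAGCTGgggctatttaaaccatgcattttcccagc

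TP63: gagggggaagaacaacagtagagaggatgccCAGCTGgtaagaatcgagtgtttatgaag

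TP73: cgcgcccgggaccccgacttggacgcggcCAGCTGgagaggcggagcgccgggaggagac

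The CAGCTG in capitals before the downstream MDM2 start lay 764 bp beyond the MDM2 peak. From the TP63 site the nearest peak was 3.06 Mb away, and from the TP73 site it was 1.81 Mb away. Across all 14 member promoter windows (8 genes, as MCL1 had none in the table), 5 windows of 3 genes held a NeuroD1-type E-box, 2 of TP73, 1 of TP63 and 2 of MDM2, which overlap and share their sites. The windows of MDM4, PMAIP1, BCL2, BBC3 and BCL2L1 held none. Among all 35116 promoter windows the share with such a site was 29.8%.

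Fold enrichment is the pileup of ChIP reads divided by that of the background, after adding 1 to both. Across the 6183 peaks it had a median of 6.79 and ran from 1.58 to 70.0. The 10 member peaks had a median of 8.15 and ran from 5.27 to 13.97. Of these, 7 lay above the median of all peaks and 5 above the upper quartile of 8.68. The summit of a member peak was covered by 12 to 28 ChIP reads, with a median of 19.5 against 17 for all peaks. The reads were worked out from the deposited fold enrichment and −log10 p. The implied background at the member summits was 1.04 to 3.0 reads, with a median of 1.31, equal to that of all peaks. At 2087 of all peaks and 2 of the member peaks it sat at its lowest level, taken here as the genome-wide level and not a local one.

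**Figure D1:**
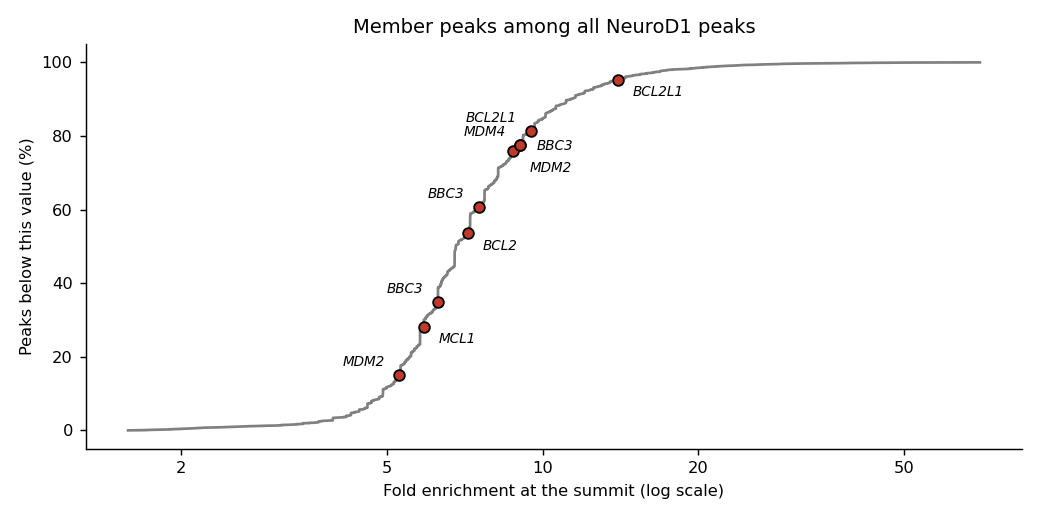
The horizontal axis gives the fold enrichment at the summit on a log scale, and the vertical axis the share of all 6183 peaks below it. The grey line is all peaks and the red points are the 10 member peaks, which run from the MDM2 start peak at 5.27 to the BCL2L1 start peak at 13.97.

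By gene, 6 of 9 members carried a peak, or 66.7%, with an exact Clopper-Pearson 95% interval from 29.9% to 92.5%. Under the same rule 29.7% of 20037 protein-coding genes had one, and this background depends on length. It was 25.7% for bodies under 20 kb, 30.9% for 20 to 100 kb and 37.7% for over 100 kb. Among members, 2 of 3 genes of the shortest class, 3 of 4 of the middle class and 1 of 2 of the longest class had a peak. The windows of the members held 9.04 peaks per Mb, against 4.16 per Mb over the windows of all protein-coding genes, each counted separately. MDM2, BCL2L1 and BBC3 had 2 or more peaks, as did 9.01% of protein-coding genes. The share of protein-coding genes with a peak also differed between chromosomes, from 25.7% on chromosome 3, which carries TP63, through 28% on chromosome 1 (TP73, MDM4 and MCL1) and 32.2% on chromosome 20 (BCL2L1), to 44.5% on chromosome 12 (MDM2). The 9 genes are a small list picked by hand with earlier results of these data known, so their interval does not describe a random sample. No test was made of the list. The 6 genes with a peak stayed the same with peaks of a −log10 q of at least 5. At that limit MDM2 lost the peak at its start (−log10 q 4.20) and stayed only through a peak 6.03 kb beyond its 3′ end. MDM4 dropped out when only the gene body or 3 kb around it counted.

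The p53 family members had no peak. TP63 (chr3:189596746-189897276, 301 kb), which encodes p63, a regulator of epithelial stem cells, lay between peaks 3.03 Mb before its body and 2.83 Mb after it. That gap of 6.16 Mb held 30 protein-coding genes in all, and only 33 of the 6160 gaps between neighbouring peaks on a chromosome were as long or longer. TP73 (chr1:3652516-3736201, 83.7 kb), which encodes p73 and has a role in neuronal development, lay in a gap of 4.09 Mb with 52 protein-coding genes. Its nearest peak was 1.73 Mb after the gene, and 80 gaps were as long or longer. Of all protein-coding genes on chromosomes with a peak, 2.57% lay farther from a peak than TP63 and 5.22% lay farther than TP73. A gene without a called peak is one in which no binding was detectable at this depth, which is not the same as absence of binding. The listed TP73 promoter windows had GC contents of 78.7%, 61.3% and 61.3%, and the single TP63 window had 43.7%, against a median of 68.0% in promoter windows with a peak and 57.3% in those without.

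Both MDM genes had a peak, but only MDM2 had one at its start. MDM2 (chr12:68808172-68850686, 42.5 kb) held the peak chr12:68808020-68808218 across its 5′ end. It was enriched 5.27-fold (−log10 q 4.20). The summit had 13 ChIP reads (exact Poisson 95% interval 6.92 to 22.2), and the implied background was 1.61. With the background held fixed, these reads correspond to a fold enrichment of 2.99 to 8.74. The summit lay 67 bp upstream of the first MDM2 start and 912 bp upstream of the downstream start, which is the promoter in the first intron that p53 is known to activate. This was the weakest of the 10 member peaks. Its rank was 5235 of 6183 for fold enrichment, and 5384 for −log10 q. In comparison, 13.7% of 15843 protein-coding genes with a listed promoter window had a peak over one.

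The second MDM2 peak, chr12:68856712-68857018, lay 6.03 kb beyond the 3′ end. Enrichment there was 8.77-fold (−log10 q 12.6), from 21 reads (13.0 to 32.1). It lay inside CPM, which encodes carboxypeptidase M and is transcribed toward MDM2 from the reverse strand, at 75.7 to 76.3 kb from the listed CPM starts. The fold enrichment intervals of the 2 MDM2 peaks overlapped in part (2.99 to 8.74 and 5.59 to 13.2). Overlap of separate intervals is no test of a difference, and their order was not tested.

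MDM4 (chr1:204516406-204558120, 41.7 kb), which encodes a p53-binding relative of MDM2, had no peak in its body. The peak chr1:204574809-204575048 lay 16.7 kb beyond the 3′ end of MDM4, in the antisense transcript LRRN2-AS1. Enrichment was 9.03-fold (−log10 q 14.0), from 23 reads (14.6 to 34.5). The summit was 58.5 kb from the MDM4 start, which was still the nearest start in the promoter table. On the other side of MDM4, a group of 3 peaks lay 69.3 to 73.4 kb away, outside the limit, and the highest of them had a fold enrichment of 16.3.

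Each of the 3 pro-survival members carried a peak lying at least partly in its body, against 16.0% of all protein-coding genes by the body alone. At MCL1 the peak reached only the edge of the body and its summit lay outside. The other BCL2 family genes examined further below had such a peak in 3 of 16 cases. The pro-survival genes BCL2L2, BCL2A1 and BCL2L10 were not among them, and BCL2A1 and BCL2L10 had no peak within 20 kb either. Whether pro-survival genes differ from other genes was not tested. BCL2L1 (chr20:31664452-31723963, 59.5 kb, reverse strand) had the strongest member peak, chr20:31723418-31723758. It was enriched 13.97-fold (−log10 q 24.7), from 28 reads (18.6 to 40.5) against a background of 1.04. Its rank was 288 for fold enrichment and 431 for −log10 q, and 95.1% of all peaks had a lower fold enrichment. The summit lay between both listed BCL2L1 starts, 348 bp downstream of the first and 747 bp upstream of the second, and the peak overlapped neither promoter window. It was also the widest member peak, at 341 bp against a median of 220 bp for all peaks.

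The second BCL2L1 peak, chr20:31693982-31694226, lay 29.9 kb into the gene and inside the antisense transcript BCL2L1-AS1. Enrichment was 9.50-fold (−log10 q 13.2), from 20 reads (12.2 to 30.9). The fold interval of the BCL2L1 start peak (9.45 to 19.98) did not overlap those of the MDM2 start peak (2.99 to 8.74) and the MCL1 peak (3.82 to 8.71). It overlapped those of the other 7 member peaks, among them the second BCL2L1 peak (5.98 to 14.4). In reads alone, the intervals of all 9 other member peaks overlapped that of the BCL2L1 start peak.

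**Figure D2:**
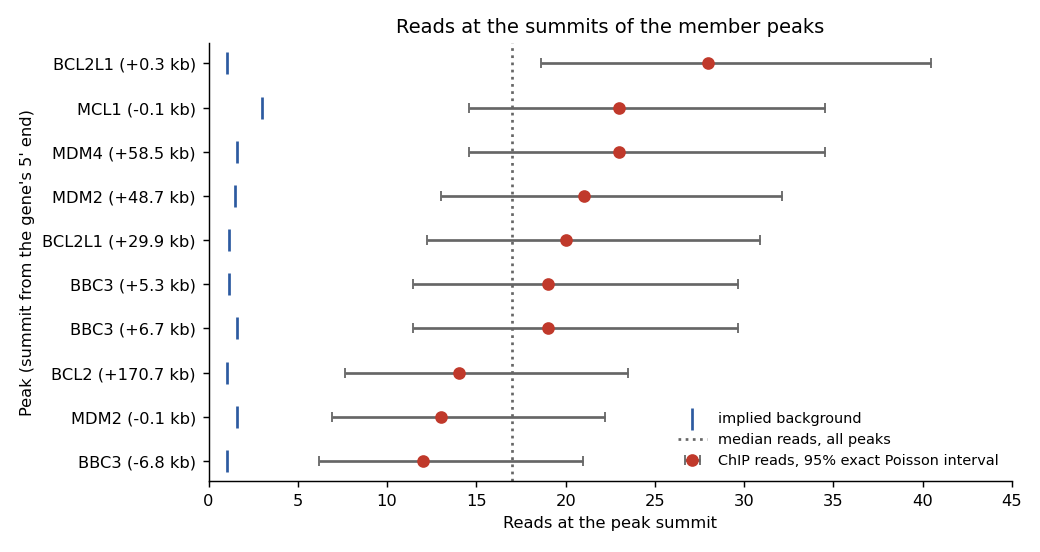
Red points are the ChIP reads at the summit of each member peak with 95% exact Poisson intervals, blue marks are the implied background and the dotted line is the median of 17 reads over all peaks. The BCL2L1 start peak is highest at 28 reads and the upstream BBC3 peak lowest at 12. Every interval lies above its background, which follows from calling peaks by their excess over it.

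MCL1 (chr1:150574558-150579610, 5.05 kb) encodes a short-lived guard that many cells need for survival. Its peak, chr1:150579564-150579839, spanned the last bases of the gene body on the map. MCL1 is transcribed from the reverse strand, so this is its 5′ end, and the summit lay 87 bp outside the gene. The fold enrichment of 5.89 was the second lowest among the members (rank 4435), while the −log10 q of 8.70 placed the peak at rank 2631. The 23 reads at the summit (14.6 to 34.5) were above the member median of 19.5, and the implied background of 3.0 was the highest of the member peaks. The same peak also reached the body of the uncharacterised transcript LOC107985203.

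BCL2 (chr18:63123346-63320090, 197 kb, reverse strand), the founding gene of the family, had a single peak deep inside the gene at chr18:63149353-63149498. The summit lay 171 kb from the 5′ end. Enrichment was 7.18-fold (−log10 q 7.21), from 14 reads (7.65 to 23.5) against a background of 1.05. At 146 bp it was as narrow as any peak in the list. The listed BCL2 promoter window held no peak. The next peak outside the limit, chr18:63367254-63367860, was 47.2 kb beyond the 5′ end of BCL2 and had a fold enrichment of 39.5 with 81 reads. It ranked 11 of all peaks, and its summit was 412 bp from the start of KDSR-DT, a divergent transcript of KDSR.

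Of the BH3-only genes, BBC3 had 3 peaks and PMAIP1 had none. BBC3 (chr19:47220824-47232860, 12037 bp, reverse strand) encodes PUMA, which binds every pro-survival BCL2 protein. Within the gene, the peak chr19:47227512-47227695 was enriched 9.05-fold (−log10 q 12.1), from 19 reads (11.4 to 29.7). The peak chr19:47226091-47226282, with its summit 1.39 kb away, was enriched 7.53-fold (−log10 q 9.78), also from 19 reads. Their summits lay 5.08 and 6.47 kb downstream of the listed BBC3 start. The equal reads and unequal fold enrichments go with different implied backgrounds, 1.17 and 1.61.

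The third peak near BBC3, chr19:47239645-47239825, lay 6.79 kb upstream of the gene in the transcript LOC124904731. It had the fewest reads of the member peaks, 12 (6.20 to 21.0), and was enriched 6.27-fold (−log10 q 5.21). With 3 peaks, BBC3 stood with 3.02% of protein-coding genes that had 3 or more in the same window, and 40.5% of the protein-coding genes of chromosome 19 had at least 1. The next BBC3 peak lay just outside the limit at 23.6 kb, at the start of CCDC9 (fold enrichment 5.31, 10 reads), whereas the farthest peak inside the limit was that of MDM4 at 16.7 kb.

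PMAIP1 (chr18:59899996-59904305, 4.31 kb) encodes NOXA, a selective partner of MCL1. Its nearest peak was 323 kb away, and 26.5% of protein-coding genes lay farther from one. The PMAIP1 promoter window had a GC content of 71.3%, above the median of windows with a peak, and no E-box of any kind. On chromosome 18, which also carries BCL2, 27.4% of 270 protein-coding genes had a peak under the rule.

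**Figure D3:**
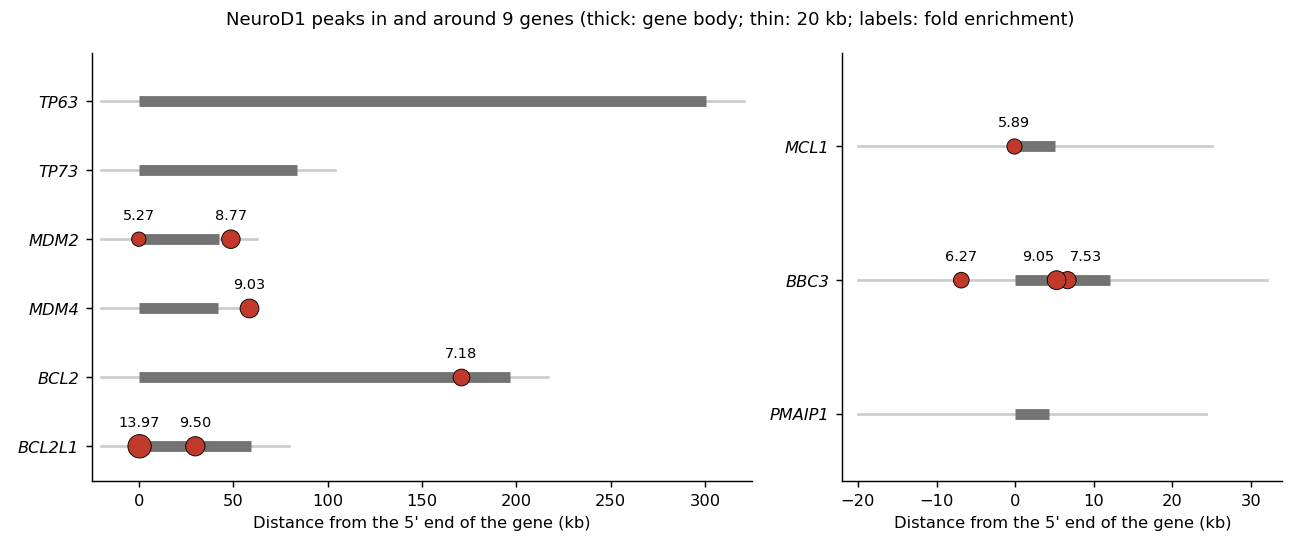
Each row is a gene drawn from its 5′ end in kb, with the body as a thick bar and the 20 kb on each side as a thin line. Red circles are peak summits, sized and labelled by fold enrichment; peaks sit at the starts of MDM2, BCL2L1 and MCL1, while TP63, TP73 and PMAIP1 are empty.

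Over all members, 3 of the 10 summits lay within 1 kb of the 5′ end of the member gene, at MDM2, BCL2L1 and MCL1. Counted against the promoter table, which does not list MCL1, 2 of the 10 lay within 1 kb of a start of any gene. Over all peaks for which the promoter table lists a start on the chromosome, 41.9% of 5995 summits lay within 1 kb of a start of any gene. In promoter windows where the 50 bases on each side of a summit could be read, 11.97% of 1638 summits had a NeuroD1-type E-box. A stretch of the same length in the middle of windows without a peak had one in 10.9% of 32195. For any E-box the shares were 27.1% and 33.9%. Over whole windows the NeuroD1-type share was lower with a peak, at 25.3% of 2921 windows against 30.2% of those without. CAGATG was in 8.73% and 15.2% of them, and CAGCTG in 18.7% and 17.9%. Windows with a peak were richer in G and C than those without, and the part of base composition in these shares was not tested. These shares cover promoters only, and the sequence at the other 9 member peaks was not examined. The motif enrichment that the study reports is for its NeuroD1 binding sites across the genome, so it is not the same measure.

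Other genes of the same pathway were taken from fixed lists, and 20 of 59 had a peak under the same rule (33.9%, against 29.7% of all protein-coding genes). Among other BCL2 family genes 7 of 16 had a peak. The highest was 17.5 kb from BCL2L15 (fold enrichment 11.3), where the summit lay at the start of DCLRE1B. BMF, a BH3-only gene, had 4 peaks, and the highest was 17.1 kb upstream of its start with a fold enrichment of 10.7 and 29 reads. The highest peak near BCL2L2, a pro-survival gene, had a fold enrichment of 8.15 and lay at the start of PABPN1. The effector gene BAK1, the BH3-only genes BCL2L11, BID and BIK, and 5 others, among them BCL2A1 and BCL2L10, had no peak.

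Among p53 target genes 8 of 25 had a peak. At PIDD1, which encodes a death-domain protein, the summit lay 187 bp upstream of the start, with a fold enrichment of 9.16 and 18 reads (10.7 to 28.4). At CDKN1A, the gene of the cell cycle inhibitor p21, the summit lay 68 bp upstream of a start, with a fold enrichment of 7.91 and 20 reads. The highest peak near PPM1D, a phosphatase gene that opposes p53, was 11.4 kb away at the start of BCAS3, with a fold enrichment of 7.96.

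Among caspase, apoptosome and IAP genes 5 of 18 had a peak. The peak beside AIFM1, the gene of apoptosis-inducing factor, had a fold enrichment of 15.4 and ranked 199, with its summit 382 bp upstream of the start. BIRC5, which encodes survivin, had 4 peaks, 2 of them in the body. The highest of the BIRC5 peaks, with a fold enrichment of 10.5, lay 1.99 kb outside the gene. The listed start nearest to its summit was that of TMEM235, 3544 bp away. HTRA2, the gene of a mitochondrial protease, also had 4 peaks, and the highest had a fold enrichment of 7.18 at 16.3 kb. APAF1, which encodes the core of the apoptosome, had none. Across the 3 lists, the highest peak lay nearest to the gene's own listed start in 7 of the 20 genes with a peak, and within 1 kb of it in 5. A gene without a listed start could not count here, such as RRM2B, whose chromosome has none listed.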

How the data were processed

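The values come from the peaks of 1 IMR-32 NeuroD1 ChIP-seq library as deposited. Their processing notes list BWA 0.7.17, MACS2 2.2.7 and hg38, while the peak names in the file carry macs3. For each summit the authors deposited a fold enrichment with its −log10 p and its −log10 q, and a score, a whole number that follows the −log10 q. Another deposited score, equal to fold enrichment over peak width in 6183 of 6183 peaks within a relative tolerance of 1e-06, was not used. Total reads of the library are unknown.

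Genes came from RefSeq of GRCh38.p14, the assembly that hg38 denotes, and positions count from 1. Promoter windows and strands came from the RefSeq promoter table, which lists no start on 1 chromosome and none for MCL1, whose strand is background knowledge. Exons, introns and genome sequence outside the promoter windows were not used here. Reads at each summit were solved from the fold enrichment and −log10 p with the Poisson upper tail. A weight of 0.98 per read gave the smallest misfit among those scanned from the deposited values, and the solved −log10 p lay within 2% for 6182 of 6183 peaks. On 1000 simulated peaks the reads were recovered in 100% of cases. Those peaks were made with the same formula and weight, so they check the solver and not whether the deposited values follow that formula. Intervals are 95% exact Poisson or exact Clopper-Pearson intervals.

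The text names every member, every peak found by the rule, the genes that share such a peak and up to 3 genes of each related list with the highest peaks. Genes named as having no peak, and peaks outside 20 kb, were chosen after their values were seen. The members and lists were chosen with earlier results of these data known. Alternatives were other distances, stricter peaks, summit positions and ranks. The software was matplotlib 3.10.9, scipy 1.17.1, pandas 2.3.3 and numpy 2.4.6 under Python 3.11.15.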

Additional observations from a re-analysis of the deposited data

How the results depend on the processing

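The count of member genes with a peak was 6 at 20 kb, by summit position, at 50 kb, at a −log10 q of 5 or more and at 5-fold enrichment or more. It was 5 with the gene body or 3 kb. Member peaks numbered 10, and 7 with the gene body or 3 kb, 9 with a −log10 q of at least 5 and 15 at 50 kb. The peak lost at a −log10 q of 5 was the one at the MDM2 start. The share of all protein-coding genes with a peak was 29.7%, and it moved to 16.0% with the gene body, 21.4% at 3 kb, 39.9% at 50 kb, 24.4% at a −log10 q of 5 or more and 27.6% at 5-fold enrichment or more, as fewer or more peaks or bases count. Related genes with a peak numbered 20, and 16 at 3 kb or with a −log10 q of at least 5. Member promoter windows with a NeuroD1-type E-box numbered 5, against 9 with any E-box and 4 before the start only; both alternatives were chosen after seeing the data. The E-box count at all member summits needs the genome sequence and was not run here. No paired analysis was possible because the ChIP library has no replicate and no second condition. The member summits held only 12 to 28 reads, and the order of the member peaks was not tested.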
